A study of Mus musculus with 8 samples.

Results

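The transcripts of 10 Polycomb group genes were followed in mouse oocytes at the germinal vesicle (GV) stage, the immature stage at which the nucleus is still intact. The members were chosen by name as Ezh1, Ezh2, Eed, Suz12, Rnf2, Ring1, Bmi1, Phc1, Cbx2 and Jarid2. They took in 27 of the 45101 probe sets of an Affymetrix mouse array, each assigned by the platform annotation to 1 gene symbol. Total RNA was measured in 8 samples, of which 4 came from untreated GV oocytes and 4 from GV oocytes kept in culture for 48 h with milrinone. Milrinone inhibits the phosphodiesterase PDE3A, which keeps cAMP high and holds the oocyte at the GV stage. No sample cultured without the drug was analysed here, so drug, culture and elapsed time cannot be told apart. The labels give no strain, age or sex of the animals, nor whether replicates came from separate collections, so the spread behind the p-values is that of these samples alone and could be technical.

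Polycomb proteins hold genes silent through a pair of chromatin complexes. In Polycomb repressive complex 2 (PRC2), EZH2 or EZH1 methylates histone H3, EED and SUZ12 hold the enzyme in its active form, and JARID2 helps to bring it to its sites. In PRC1, RING1 or RNF2 (also known as RING1B) attaches ubiquitin to histone H2A next to a partner such as BMI1, CBX proteins read the PRC2 mark, and PHC proteins join complexes to each other. In growing oocytes these complexes keep developmental regulators off, and the histone methylation set by PRC2 passes to the embryo as an imprint on some maternal alleles.

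The values are the deposited intensities on a linear scale, and many cells of the table were empty. Below, listed means that a probe set has a value on the array in question; where the cell is empty, the signal has no known upper bound. Every array listed 41.3% to 51.6% of the probe sets, the most on untreated 1. That array stood apart: its correlations with the others had a median of 0.930, and those of each other array 0.966 to 0.980. The 16 probe sets of 14 oocyte marker genes, among them Gdf9 and Zp3, were listed on all 8 arrays. Probe sets of cumulus, granulosa and theca cell markers, 49 in all from 24 genes, were listed on 25 to 37 per untreated array and on 11 to 19 per milrinone array. Their summed intensity was 22476 to 99201 per untreated array, highest on untreated 1, and 2861 to 4005 per milrinone array. Of the 49, 11 were listed on at least 3 arrays of each group and were tested. In milrinone samples 10 were lower and 1 was higher, with a median log2 difference of -1.86. By limma, 4 had an adjusted p under 0.05, all lower, against 0.117% of all tested probe sets. An unadjusted p under 0.05 was found for 8 of the 11, against 9.63% of all. The 1 that was higher belongs to the steroidogenic marker Cyp11a1, whose probe sets did not share a pattern. Probe set 1448804_at was listed at 576 to 9664 in untreated samples and in none of the milrinone samples. Probe set 1439947_at was listed on 3 untreated arrays at 127 to 212 and on all 4 milrinone arrays at 181 to 226, with an adjusted p of 0.603 by limma, and 1457604_x_at was listed on untreated 1 alone. The inhibin subunit gene Inha and the steroidogenic gene Hsd3b1 were each listed on 4 of 4 untreated and 2 of 4 milrinone arrays. Inha had 1698 to 8512 in untreated samples and 106 and 289 on the milrinone arrays that listed it. Hsd3b1 had 2116 to 15428.5 in untreated samples and 224 and 165 on its listed milrinone arrays. Markers of blood, stroma and endothelium were listed on 12 to 18 of 25 probe sets in untreated and on 6 or 7 in milrinone samples, with summed intensities of 1795 to 11295 and of 679 to 991. In such pooled RNA, fewer cells of a type and less RNA per cell cannot be told apart. The 3' over 5' ratio of the control probe sets, a measure of RNA integrity, was 6.87 to 13.1 in untreated and 11.6 to 20.4 in milrinone samples for Actb. For Gapdh it was 6.23 to 7.68 and 6.09 to 8.25. The ranges overlapped for both controls, but for Actb milrinone 1, 3 and 4, at 20.4, 15.0 and 13.7, lay above every untreated array. The part of the marker levels and of these ratios in the results below was not tested. Results are also given without untreated 1, since that array stood apart. Leaving it out does not take away the marker difference. Untreated 2 to 4 still had summed cumulus, granulosa and theca intensities of 22476 to 25220. Nor does it bear on the ratios, since those of untreated 1, 8.94 for Actb and 7.04 for Gapdh, lay within those of the other untreated arrays.

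None of the Polycomb probe sets was detected to differ between the groups. A probe set was tested when both groups listed it on 3 or more of their 4 arrays, which held for 19 of the 27 and for 9 of the 10 genes, all but Ring1. Of these 19, 0 passed limma at an adjusted p under 0.05 and 0 had an unadjusted p under 0.05. Over all 16288 tested probe sets the shares were 0.117% (19 probe sets, all lower in milrinone) and 9.63%. The untreated and milrinone values overlapped in all 19, while 7.8% of all tested probe sets had groups that did not overlap. Differences below are milrinone minus untreated on the scale of log2(intensity + 16), which understates changes of dim probe sets. Their range over the 19 was -0.07 to 0.30 and their median 0.07, beside a median of 0.06 over all tested probe sets. In 13 of the 19 the value was above 0. That count moved with the scaling and with 1 array: it was 2 of 19 after quantile normalization, 18 of 19 with the arrays centred on ribosomal proteins and 8 of 19 without untreated 1. Under those scalings the median over all tested probe sets was -0.13 and 0.25.

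The data bound the size of a change more tightly than they locate its sign. The 95% intervals of all 19 lay within a 2-fold change in either direction, which held for 90.4% of all tested probe sets. Those of 17 also lay within 1.5-fold, against 56.0% of all tested probe sets. The widest bounds were 0.73-fold for probe set 1420020_at of Suz12 and 1.55-fold for Phc1. These intervals apply to the deposited scaling, and since the same mass of cRNA, 15 µg, went onto each array, they describe a level relative to the rest of the RNA.

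**Figure D1:**
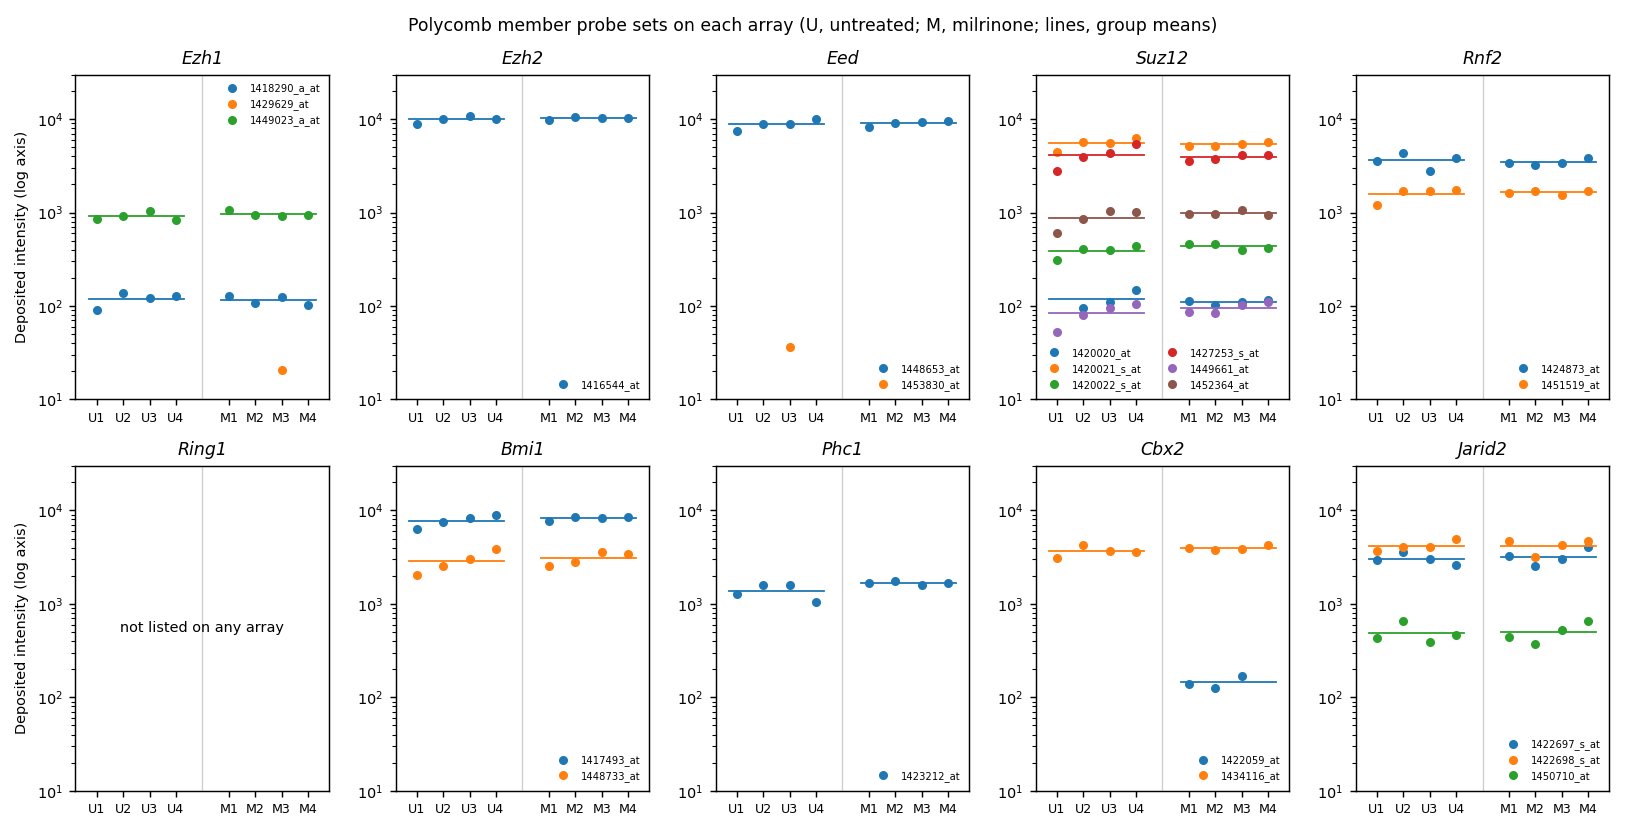
Deposited intensity (log axis) of every listed Polycomb probe set on the 4 untreated (U) and 4 milrinone (M) arrays, one panel per gene, with group means as lines. Intensities of different probe sets cannot be set against each other; the groups overlap within each of the 19 tested probe sets, Ring1 has no value, and the 3 listed but untested probe sets have values in 1 group alone (milrinone for those of Cbx2 and Ezh1, untreated for that of Eed).

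Ezh2, which encodes the main PRC2 methyltransferase of dividing cells, had the most tightly bounded difference of the 19. Its probe set 1416544_at had intensities of 8895, 10005, 10728 and 10034 on untreated arrays 1 to 4 and of 9881, 10624, 10246 and 10155 on milrinone arrays 1 to 4. Untreated 1 was the lowest and untreated 3 the highest, so the milrinone values lay inside the untreated range. The difference was 0.05 (SE 0.07, 95% interval -0.10 to 0.20, limma adjusted p = 0.813), or 1.03-fold with bounds of 0.93 and 1.15. Without untreated 1 it was -0.0039, and it was -0.0053 after quantile normalization.

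Ezh1, the second PRC2 methyltransferase, was followed by 2 of its 4 probe sets. Probe set 1449023_a_at had 856, 925, 1035 and 829 in untreated and 1077, 933, 921 and 944 in milrinone samples. Milrinone 1 was the highest of the 8, and the other milrinone arrays lay close together. The difference was 0.09 (SE 0.13, interval -0.20 to 0.37, limma adjusted p = 0.813). Probe set 1418290_a_at had 91.2, 138, 123 and 128 on untreated and 128, 109, 124 and 103 on milrinone arrays, a difference of -0.03 (interval -0.38 to 0.31). Both are of the kind that reads several transcripts of 1 gene. Of the remaining probe sets of Ezh1, 1429629_at was listed on milrinone 3 alone, at 20.6, and 1429630_at on no array.

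Eed, which encodes the subunit that binds methylated histone H3 and stimulates the enzyme, had 7460, 8809, 8901 and 10078 on untreated arrays and 8253, 9030, 9229 and 9596 on milrinone arrays with probe set 1448653_at. The lowest and the highest value of the 8 were both untreated, on arrays 1 and 4. The difference was 0.04 (SE 0.09, interval -0.17 to 0.25, limma adjusted p = 0.889), and -0.04 without untreated 1. Its other probe set, 1453830_at, was listed on untreated 3 alone, at 36.2.

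Suz12, which encodes the scaffold subunit of PRC2, had 6 probe sets, all of which were tested. Probe set 1420021_s_at had 4483, 5655, 5587 and 6346 on untreated and 5154, 5129, 5477 and 5683 on milrinone arrays, a difference of -0.03 (SE 0.11, interval -0.27 to 0.20, limma adjusted p = 0.926). Probe set 1427253_s_at spread further in the untreated group, with 2801, 3980, 4388 and 5438, than in the milrinone group, with 3605, 3753, 4094 and 4095. Its difference was -0.06 (interval -0.44 to 0.32), or -0.23 without untreated 1 and 0.09 without untreated 4. Those 2 arrays were the lowest and the highest of the 8 for this probe set. Probe set 1452364_at had 608, 855, 1052 and 1007 on untreated and 975, 960, 1075 and 934 on milrinone arrays, and its difference of 0.19 (interval -0.20 to 0.58) became 0.03 without untreated 1. Probe set 1420022_s_at differed by 0.17 and 1449661_at by 0.19, and these became 0.07 and 0.02 without untreated 1. Probe set 1420020_at, empty on untreated 1, had 95.4, 109 and 149 on untreated 2 to 4 and 113, 102, 110.0 and 115 on the milrinone arrays, a difference of -0.07. The 6 probe sets thus gave differences from -0.07 to 0.19, and the 3 furthest above 0 leaned on untreated 1. Those with the ending _s_at can also read transcripts other than Suz12.

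Jarid2 encodes an accessory subunit without an active enzyme of its own. With all 8 arrays kept, it was the one gene whose probe sets all spread more in the milrinone group. Probe set 1422698_s_at had 3687, 4013, 4042 and 4975 on untreated and 4698, 3183, 4272 and 4653 on milrinone arrays, a difference of -0.00021 (SE 0.14, interval -0.31 to 0.31, limma adjusted p = 0.999). Probe set 1422697_s_at had 2973, 3583, 3052 and 2579 on untreated and 3240, 2539, 3036 and 4033 on milrinone arrays, a difference of 0.07 (interval -0.27 to 0.40). All 3 probe sets of Jarid2 were lowest on milrinone 2. On untreated 4 the pair parted, since that array was the highest of the 8 for the first and the second lowest for the other. The third, 1450710_at, had 436, 660, 389 and 463 on untreated and 440, 370, 528 and 649 on milrinone arrays, a difference of 0.03 (interval -0.45 to 0.50). As for Suz12, the probe sets with the ending _s_at can also read transcripts other than Jarid2.

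Rnf2 encodes the main ubiquitin ligase of PRC1, and 2 of its 5 probe sets were tested. Probe set 1424873_at had 3549, 4301, 2814 and 3828 on untreated and 3388, 3202, 3410 and 3880 on milrinone arrays, a difference of -0.05 (SE 0.13, interval -0.34 to 0.24, limma adjusted p = 0.907). Probe set 1451519_at had 1197, 1708, 1687 and 1745 on untreated and 1635, 1685, 1537 and 1714 on milrinone arrays, a difference of 0.07 (interval -0.24 to 0.38). The 2 probe sets did not share an order: the first was lowest on untreated 3 and the second on untreated 1, well below the rest, without which its difference was -0.06. The other 3 probe sets of Rnf2 were listed on no array. Ring1, which encodes the alternative ligase, had 1 probe set, 1422647_at, and it was empty on all 8 arrays. Of all probe sets that are not controls, 35.5% were empty throughout, and nothing is said here of the level of Ring1.

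Bmi1, a partner of the PRC1 ligases, was read by 2 probe sets. Probe set 1417493_at had 6261, 7436, 8225 and 9040 on untreated and 7692, 8559, 8286 and 8516 on milrinone arrays, and its difference was 0.11 (SE 0.11, interval -0.13 to 0.34, limma adjusted p = 0.728). The 4 milrinone values lay within the span of the untreated ones. Probe set 1448733_at had 2032, 2560, 3007 and 3827 on untreated and 2542, 2782, 3606 and 3430 on milrinone arrays, a difference of 0.14 (interval -0.28 to 0.56). Both were lowest on untreated 1 and highest on untreated 4. Without untreated 1 they differed by 0.01 and -0.01.

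Phc1, which encodes a Polyhomeotic protein that links PRC1 complexes, had the largest difference of the 19. Its probe set 1423212_at had 1270, 1579, 1596 and 1037 on untreated and 1654, 1735, 1590 and 1669 on milrinone arrays. Untreated 1 and 4 were low, whereas untreated 2 and 3 lay close to the milrinone values and untreated 3 exceeded the lowest of them. The difference was 0.30 (SE 0.15, interval -0.04 to 0.63, limma adjusted p = 0.532), or 1.23-fold with bounds of 0.98 and 1.55. It was 0.17 without untreated 4, 0.27 without untreated 1 and 0.11 after quantile normalization, and its adjusted p ran from 0.399 to 0.805 over the alternatives.

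Cbx2, which encodes a chromodomain protein of PRC1, had 3065, 4261, 3705 and 3556 on untreated and 3941, 3795, 3908 and 4224 on milrinone arrays with probe set 1434116_at. The difference was 0.13 (SE 0.11, interval -0.11 to 0.37, limma adjusted p = 0.670), and 0.05 without untreated 1. The milrinone values again fell inside the untreated range. A second probe set of Cbx2, 1422059_at, was empty on all untreated arrays and listed at 138, 125 and 170 on milrinone 1 to 3, so no difference is given for it. Listing on at least 3 milrinone and 0 untreated arrays held for 0.191% of the 45037 probe sets that are not controls, and the opposite pattern for 1.56%. This probe set was singled out after its values were seen, and the other one of the gene did not show such a pattern.

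**Figure D2:**
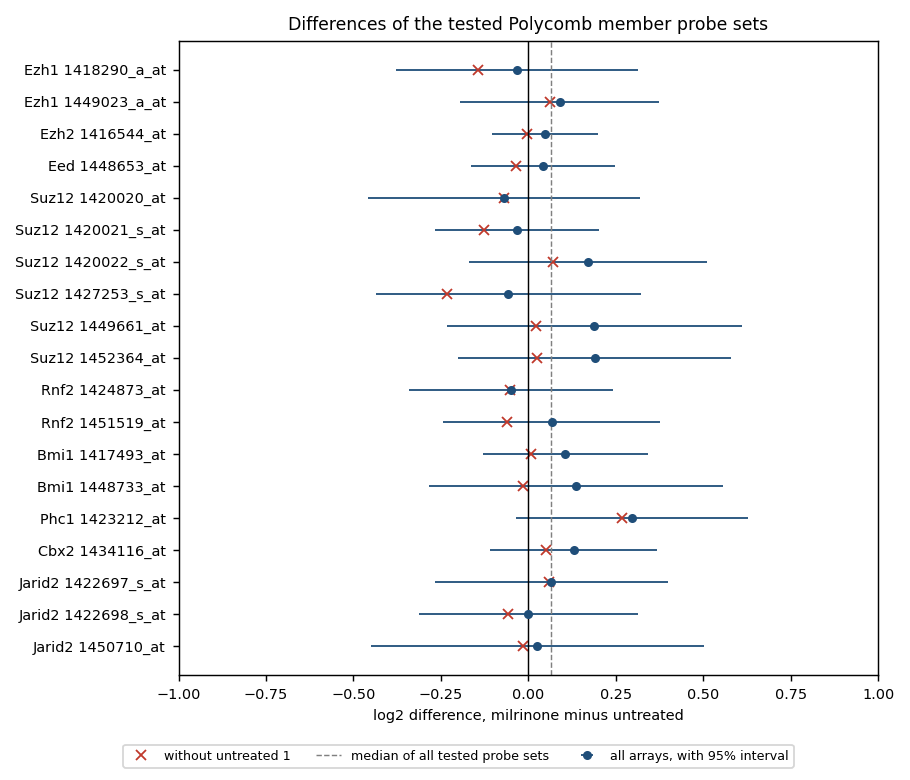
Difference in log2(intensity + 16), milrinone minus untreated, of the 19 tested Polycomb probe sets, with 95% intervals from limma; crosses give the value without untreated 1 and the dashed line the median of all tested probe sets, 0.06. Every interval spans 0 and lies between -0.46 and 0.63.

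With all 8 arrays kept, these genes varied most within the untreated group, except for Jarid2. For each of the 18 Polycomb probe sets listed on all 8 arrays, the log2 value on an array was set against the mean of that probe set. Untreated 1 had the lowest value of the 8 in 12 of 18, from 7 of 9 genes, against 39.6% of the 14391 probe sets listed on all arrays. After the arrays were centred on their medians it was again 12 of 18, against 31.9%. The median deviation on untreated 1 was -0.29 for the Polycomb probe sets and -0.17 for all. All 5 probe sets of Suz12 listed on every array were among the 12, so the count is not one of independent items. Untreated 4 held the highest value in 7 of 18, against 17.2% of all, with a median deviation of 0.12 for the Polycomb probe sets and -0.05 for all, although Phc1 was 0.52 below its own mean there. Untreated 1 was also the array with the highest levels of granulosa and stromal markers, at a summed intensity of 99201 for the former against 22476 to 25220 on the other untreated arrays. Their part in the low Polycomb values of that array was not tested.

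**Figure D3:**
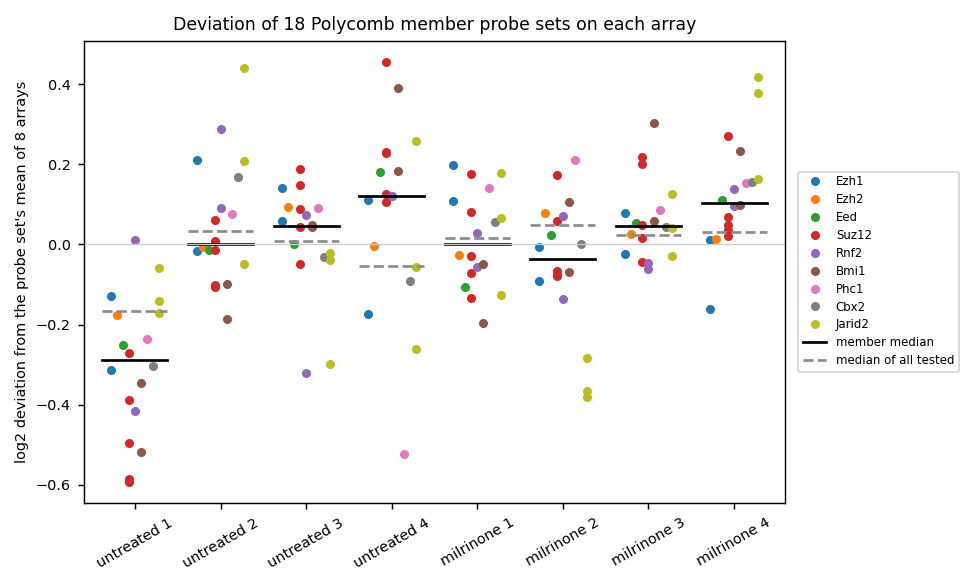
Log2 deviation of each of 18 Polycomb probe sets from its own mean over the 8 arrays, by array and coloured by gene; black bars are the median of the Polycomb probe sets and dashed grey bars the median of all tested probe sets on every array. On untreated 1 the black bar lies at -0.29 and the grey one at -0.17, and on milrinone 2 the 3 lowest points are those of Jarid2.

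The spread between replicates was correspondingly larger in the untreated group. The SD of the log2 values was larger in untreated than in milrinone samples for 15 of the 18 Polycomb probe sets, with medians of 0.23 and 0.10. Over all probe sets listed on every array the share was 77.1%, with medians of 0.27 and 0.16, and that of the Polycomb probe sets was 83.3%. Without untreated 1 it was larger in 12 of 18, against 61.5% of all, with a median of 0.16 for the Polycomb probe sets. With the arrays also centred on their medians it was larger in 15 of 18, against 61.3% of all, with a median of 0.19. With untreated 1 kept, the 3 with more spread in milrinone were those of Jarid2. For 1422697_s_at the SD was 0.19 in untreated and 0.27 in milrinone samples, and for 1450710_at it was 0.32 and 0.34. At the other end, Phc1 had 0.29 and 0.05. On the deposited scaling and without untreated 1, the pattern was not particular to Jarid2. Its probe set 1450710_at then spread more in untreated samples. Probe sets of other genes then spread more in milrinone samples, such as 1451519_at of Rnf2, with 1708, 1687 and 1745 on untreated 2 to 4. No test was made of a difference in spread.

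**Figure D4:**
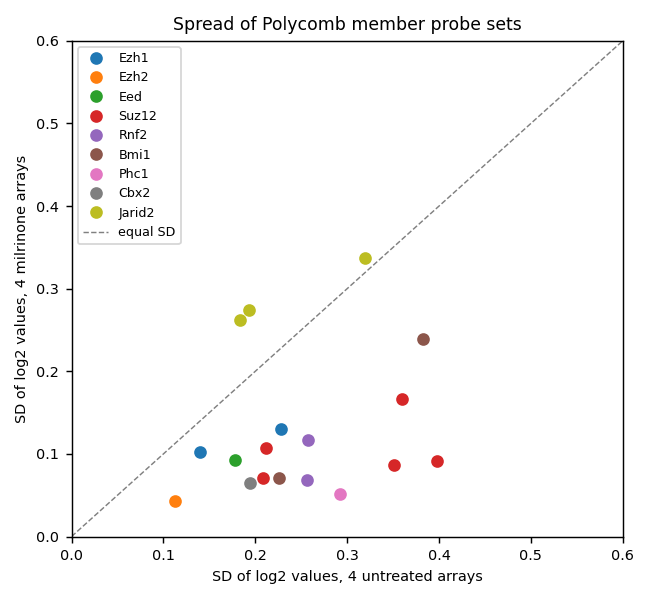
SD of log2(intensity + 16) over the 4 untreated (x axis) and the 4 milrinone arrays (y axis) for the 18 Polycomb probe sets listed on all arrays; the dashed line marks equal SD. The 15 points below the line have the larger SD in untreated samples, and the 3 above it belong to Jarid2.

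Promoters are given as a description of the genes. RefSeq promoter windows of mouse assembly GRCm38.p6 were found for 9 of the 10 genes, in 10 windows. In the 250 bases before the start, CG pairs (the same on both strands) numbered 8 to 37, above the median of 6 over all 32841 windows in each of the 10, which held for 46.3% of all windows. At least 20 pairs were present in 7 of 10, against 17.95% of all. Suz12, with 37, and Phc1, with 8, held the most and the fewest CG pairs of the 10 windows and are printed for that contrast. They lie at chr11:79992856-79993105 on the plus strand and chr6:122340228-122340477 on the minus strand, and capitals mark the CG pairs.
Suz12: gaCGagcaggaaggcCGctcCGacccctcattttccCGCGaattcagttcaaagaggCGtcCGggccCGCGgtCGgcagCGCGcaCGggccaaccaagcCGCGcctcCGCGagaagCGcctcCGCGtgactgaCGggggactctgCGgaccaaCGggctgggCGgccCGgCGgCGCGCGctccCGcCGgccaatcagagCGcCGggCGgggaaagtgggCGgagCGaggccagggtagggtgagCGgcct
Phc1: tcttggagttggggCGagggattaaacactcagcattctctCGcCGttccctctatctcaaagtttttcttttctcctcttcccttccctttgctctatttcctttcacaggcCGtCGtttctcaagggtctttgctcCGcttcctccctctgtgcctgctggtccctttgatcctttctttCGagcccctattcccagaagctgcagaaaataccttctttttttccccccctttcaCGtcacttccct
The motif TATAAA, searched on both strands, was found in 1 of the 10 windows, at Jarid2, and in 12.4% of all. These counts describe the windows and were not related to the intensities.

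Other genes of the Polycomb system were likewise not detected to differ. Each one named from here on is given by its tested probe set with the smallest p, which may not stand for its other probe sets. Of the remaining PRC2 genes, 16 probe sets of 7 genes were tested, with a median difference of -0.04. Of the 16, 0 passed limma and 0 had an unadjusted p under 0.05. Over all tested probe sets these shares were 0.117% and 9.63%. Ezhip, which encodes a germline inhibitor of PRC2, had 10387, 12349, 11160 and 11229 on untreated and 11339, 11818, 12267 and 13493 on milrinone arrays, a difference of 0.12 (interval in log2 from -0.05 to 0.28). Rbbp7, a histone-binding subunit, differed by 0.05. Mtf2, which helps PRC2 to bind unmethylated DNA, differed by -0.36 and Lcor by -0.17. Untreated and milrinone values overlapped for these 4 genes, and their adjusted p ran from 0.553 to 0.754.

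Of the other PRC1 genes, 27 probe sets of 15 genes were tested and 0 passed limma. Of the 27, 1 had an unadjusted p under 0.05, against 9.63% of all tested probe sets. The median of the 27 was 0.02. The one with p under 0.05 was Bcor, which encodes a scaffold of a variant PRC1. It had 94.6, 141, 140 and 153 on untreated arrays and 76.6, 90.1 and 74.3 on milrinone 1, 2 and 4, with an empty cell on milrinone 3. The groups did not overlap, which held for 7.8% of all tested probe sets. Its adjusted p by limma was 0.460, and it ran from 0.097 to 0.780 over the alternatives. The difference was -0.61 (SE 0.18). It was -0.74 without untreated 1 and ran from -0.81 to -0.43 over the alternatives. Yaf2, which encodes a partner of the ligases in variant PRC1, differed by 0.27, the Polyhomeotic gene Phc2 by 0.21 and Mga by -0.54, all with overlapping groups.

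Of the genes that remove Polycomb marks, 19 probe sets of 8 genes were tested and 0 passed limma. The median of the 19 was 0.14. Of the 19, 2 had an unadjusted p under 0.05, against 9.63% of all tested probe sets. The 2 were Asxl1, a cofactor of the histone H2A deubiquitinase BAP1, and Usp7, a deubiquitinase that also binds PRC1. Usp7 had 1402, 1681, 1657 and 1055 on untreated and 1954, 1731, 1887 and 1932 on milrinone arrays. These groups did not overlap, as in 7.8% of all tested probe sets, and Usp7 differed by 0.39 (SE 0.15, limma adjusted p = 0.495). Asxl1 differed by 0.40 (SE 0.16, limma adjusted p = 0.494), with overlapping groups. Usp16 and Asxl3 differed by 0.28 each. Among Trithorax and COMPASS genes, which act against Polycomb silencing, 21 probe sets of 13 genes were tested, with a median of 0.07. Of the 21, 0 passed and 2 had an unadjusted p under 0.05, against 9.63% of all tested probe sets for the latter. These 2 were both probe sets of Kmt2d. Kmt2d, a methyltransferase of active chromatin, differed by 0.19, Wdr5 by 0.31, Setd1a by 0.27 and Kmt2b by 0.21, with adjusted p from 0.508 to 0.648.

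On each array, most probe sets of genes that Polycomb complexes are known to silence in other cells, such as the Hox genes, were empty. Of 49 probe sets of 34 such genes, 10 to 12 were listed per untreated array and 6 to 10 per milrinone array. Of all probe sets, 41.3% to 51.6% were listed per array. On every array 25 of the 49 were empty, against 35.5% of all probe sets that are not controls. No value at all was present for 15 of the 34 genes, and the others had a value on at least 1 array. The tested ones were Hoxd13, Hoxd9 and Gata4, and 0 of 3 passed limma. Of the 3, 1 had an unadjusted p under 0.05, against 9.63% of all tested probe sets. Hoxd13 had 66.0, 68.7, 77.5 and 93.8 on untreated and 116, 102, 96.3 and 111 on milrinone arrays. The groups did not overlap, as in 7.8% of all tested probe sets, and the difference was 0.41 (SE 0.14, limma adjusted p = 0.472). Hoxd9 differed by 0.17. Gata4, also a granulosa cell gene, had 686, 710.5, 817 and 273 on untreated and 355, 610.5, 577 and 595 on milrinone arrays, a difference of -0.14, so that a single low array in each group set its spread.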

How the data were processed

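The deposited intensities of 8 single-colour arrays were used on their linear scale; per the labels, 15 µg of biotinylated cRNA was hybridised to each. Which software and scaling the authors used, and why cells are empty, is not given in the sources used here. Annotation symbols were replaced by current RefSeq ones that had the same Entrez identifier (34741 of 34945 probe sets with 1 symbol matched). The deposited scaling was kept, empty cells were left empty, and log2(intensity + 16) was fitted with limma 3.58.1 under R 4.3.3 (two-sided moderated test with an intensity trend, Benjamini-Hochberg over 16288 probe sets, threshold 0.05), after a test on simulated data. No test set 1 probe set against another. Plots used Python 3.11.15 and matplotlib 3.10.9. The number of arrays limits the precision. The members and gene lists were chosen with earlier results of these data known. Named were all probe sets of the 10 members, up to 4 tested genes of each other list with the smallest p, and, of the cell type markers, Gdf9, Zp3, Cyp11a1, Inha and Hsd3b1. Each such gene of the other lists was given by its probe set with the smallest p. Alternatives were other pseudocounts, filters, scalings, weights and variance priors, a replicate block and leaving out each array.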

Additional observations from a re-analysis of the deposited data

Results flagged for a closer look

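In 79 groups of 4 arrays examined, of the tested Polycomb probe sets and the other named genes, 6 had 1 array far from the other 3. Chance gives about 1 in 20, or 3.95 of 79. The value given is the gap to the nearest array as a share of the range of the group, on the log2 scale. For Ezh1 (1449023_a_at), milrinone 1 was highest at an intensity of 1077 (0.845). For Rnf2 (1451519_at), untreated 1 was lowest at 1197 (0.910). Milrinone 2 was highest for Hoxd9 at 435 (0.942) and milrinone 4 for Gdf9 at 21717 (0.851). Gata4 was lowest on untreated 4 at 273 (0.839) and on milrinone 1 at 355 (0.895).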

How the results depend on the processing

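Under each of the 18 alternatives, 0 Polycomb probe sets passed limma, with 0 or 1 at an unadjusted p under 0.05 and adjusted p of 0.399 or more. Over all probe sets, 12 passed with listing on all 8 arrays, 54 (1 higher) with centring on ribosomal proteins, 93 (6 higher) with array weights and 9 to 69 (0 to 3 higher) when 1 array was left out; the highest came without untreated 1 and the lowest without milrinone 3. Same-numbered samples were not the most alike (correlations of same-numbered deviations from -0.27 to 0.03, with 0 of 8 samples closest to their own number). With so few arrays this cannot tell whether they shared a collection. The replicate block gave 13 calls, 0 of them Polycomb.

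Of 341 values of the 19 Polycomb probe sets, 42 had the other sign, none past the threshold, and 2 probe sets kept 1 sign throughout, 1417493_at of Bmi1 and that of Phc1. Quantile normalization gave -0.0053 for Ezh2, -0.018 for Eed, -0.00089 for Cbx2, -0.011 for Bmi1 1448733_at, -0.13 for Ezh1 1449023_a_at, -0.12 for Rnf2 1451519_at, -0.073, -0.033 and -0.027 for Suz12 1420022_s_at, 1449661_at and 1452364_at, -0.073 and -0.21 for Jarid2 1422697_s_at and 1450710_at, and -0.078 for Hoxd9. Centring on ribosomal proteins gave 0.15 for Ezh1 1418290_a_at, 0.16 and 0.13 for Suz12 1420021_s_at and 1427253_s_at, 0.19 for Jarid2 1422698_s_at, 0.14 for Rnf2 1424873_at, 0.013 for Lcor, 0.051 for Gata4, 0.11 for Zp3 and 0.14 for Gdf9. Centring on the median gave -0.0033 for Jarid2 1450710_at. Array weights gave -0.0084 for Ezh2, 0.028 for Suz12 1420020_at, -0.0058 and 0.041 for Jarid2 1422697_s_at and 1422698_s_at, 0.020 and -0.041 for Rnf2 1424873_at and 1451519_at, and -0.0068 for Ezh1 1449023_a_at. Leaving out 1 array gave ranges of -0.014 to 0.29 for Bmi1 1448733_at, -0.037 to 0.11 for Eed, -0.14 to 0.031 for Ezh1 1418290_a_at, -0.0039 to 0.086 for Ezh2, -0.48 to 0.043 for Gata4, -0.050 to 0.17, -0.059 to 0.13 and -0.11 to 0.18 for Jarid2 1422697_s_at, 1422698_s_at and 1450710_at, -0.16 to 0.039 and -0.061 to 0.12 for Rnf2 1424873_at and 1451519_at, and -0.19 to 0.091, -0.13 to 0.039 and -0.23 to 0.085 for Suz12 1420020_at, 1420021_s_at and 1427253_s_at. The cause was not tested.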
